A study of Mus musculus with 2 samples.

Results

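TET2 peaks at CpG-rich promoters of protein-coding genes that are read in 1 direction numbered 2164 of the 14103 deposited peaks, or 15.3% (exact 95% binomial interval 14.8% to 15.9%). A peak was a member when its midpoint lay on an autosome within 1 kb of the transcription start site (TSS) of a protein-coding transcript and the nearest such TSS had a CpG observed/expected ratio of at least 0.75. The ratio compares the number of CpG dinucleotides 500 bp each side of the TSS with the number that its C and G content alone would give. Peaks within 1 kb of 2 coding genes on opposite strands were left out. The other peaks were 2128 at CpG-poor one-way coding promoters, 412 at opposite-strand coding pairs, 9124 elsewhere on the autosomes and 275 off the autosomes.

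The peaks came from TET2 ChIP-seq of primary mouse adipocytes, from 1 library pulled down with a TET2 antibody and 1 library of the unselected input chromatin. The cells were stem cells of the stromal fraction of inguinal white fat, grown to passage 3 and turned into adipocytes in culture with IBMX, dexamethasone and insulin, which both libraries share. The labels give no genotype, strain or age for the cells. With 1 library there was no replicate, no p was computed across peaks, and every interval covers counting error only. The number of reads is unknown from the deposited list, and the input was not analysed here on its own.

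TET2 is a dioxygenase that oxidises 5-methylcytosine to 5-hydroxymethylcytosine and further products, a step toward removal of DNA methylation. CpG islands are stretches in which CpG dinucleotides, the main sites of DNA methylation in mammals, have stayed frequent. They lie at the start of most housekeeping genes and of many developmental genes and are usually free of methylation. TET1 and TET3 carry a CXXC domain that binds CpG-rich DNA, whereas TET2 lacks this domain and depends on partner proteins.

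The CpG spacing that defines these promoters can be read from the members with the largest −log10 p among those with a single match in the genome. For each, a stretch of the peak that holds no annotated UTR is given in the direction of the gene on GRCm38, in lower case with every CpG in capitals. The stretch at Sfi1 (chr11:3193159-3193359, minus strand), which encodes a centrin-binding protein, lay from 48 to 248 bp downstream of the TSS and held 15 CpGs. At Zkscan2 (chr7:123500450-123500650, minus strand), a zinc finger gene, the bases directly upstream of the TSS held 28 CpGs. At Atp1b1 (chr1:164458356-164458556, minus strand), the gene of the beta subunit of the sodium pump, the same upstream stretch held 21. At Anks1b (chr10:90828857-90829057, plus strand), which encodes a postsynaptic protein, 14 CpGs lay between -254 and -54. At Hist1h1c (chr13:23739167-23739367, plus strand), the gene of a linker histone, 15 lay between 359 and 559, within exon 1. At Auh (chr13:52929348-52929548, minus strand), an enzyme of leucine breakdown that also binds RNA, 18 lay between -90 and 110, across the TSS.
Sfi1: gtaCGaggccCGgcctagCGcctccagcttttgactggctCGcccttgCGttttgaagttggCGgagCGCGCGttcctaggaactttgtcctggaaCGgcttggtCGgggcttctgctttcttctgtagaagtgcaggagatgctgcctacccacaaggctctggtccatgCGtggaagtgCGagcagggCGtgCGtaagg
Zkscan2: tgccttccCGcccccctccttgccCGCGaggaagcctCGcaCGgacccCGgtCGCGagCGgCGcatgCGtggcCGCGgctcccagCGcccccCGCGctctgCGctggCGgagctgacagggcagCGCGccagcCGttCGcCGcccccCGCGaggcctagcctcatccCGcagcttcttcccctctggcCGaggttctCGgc
Atp1b1: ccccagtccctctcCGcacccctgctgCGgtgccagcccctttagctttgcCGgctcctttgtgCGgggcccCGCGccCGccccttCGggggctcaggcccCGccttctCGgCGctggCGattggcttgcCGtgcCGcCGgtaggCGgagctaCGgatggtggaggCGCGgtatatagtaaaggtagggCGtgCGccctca
Anks1b: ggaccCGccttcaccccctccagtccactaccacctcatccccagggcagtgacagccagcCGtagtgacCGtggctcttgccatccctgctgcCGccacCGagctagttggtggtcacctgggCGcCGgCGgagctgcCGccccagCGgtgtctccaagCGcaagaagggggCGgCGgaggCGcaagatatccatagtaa
Hist1h1c: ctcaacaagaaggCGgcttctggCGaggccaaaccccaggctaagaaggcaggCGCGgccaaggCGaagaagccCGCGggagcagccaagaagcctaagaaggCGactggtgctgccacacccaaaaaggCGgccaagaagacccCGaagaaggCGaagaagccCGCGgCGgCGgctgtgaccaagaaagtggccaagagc
Auh: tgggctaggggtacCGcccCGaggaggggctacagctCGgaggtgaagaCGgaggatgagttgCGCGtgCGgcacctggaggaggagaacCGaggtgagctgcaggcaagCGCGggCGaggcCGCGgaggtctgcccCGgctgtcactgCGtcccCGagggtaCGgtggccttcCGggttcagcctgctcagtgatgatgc

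Sequence of the same kind was present without a peak. Pparg and Cebpa encode PPARγ and C/EBPα, the transcription factors that drive fat cell formation, and both have a promoter of the class with no TET2 peak within 1 kb. Their upstream stretches, Pparg at chr6:115360750-115360950 and Cebpa at chr7:35119092-35119292, both on the plus strand, held 20 and 15 CpGs.
Pparg: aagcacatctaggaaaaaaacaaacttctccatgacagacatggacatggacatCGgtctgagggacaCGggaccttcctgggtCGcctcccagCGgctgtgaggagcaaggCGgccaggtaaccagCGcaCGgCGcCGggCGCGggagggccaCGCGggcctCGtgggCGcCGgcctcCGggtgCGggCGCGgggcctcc
Cebpa: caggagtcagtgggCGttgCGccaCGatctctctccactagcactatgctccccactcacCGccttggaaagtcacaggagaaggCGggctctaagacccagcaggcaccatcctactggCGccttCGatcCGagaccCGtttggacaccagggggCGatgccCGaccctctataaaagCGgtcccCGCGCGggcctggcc

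Across the autosomes 5611 protein-coding genes had at least 1 TSS of the class, and 2140 of them had a member peak, or 38.1% (36.9% to 39.4%). This share is the background for the gene groups described later. Of the other class genes, 210 had a different peak within 1 kb of one of their coding TSSs and 3261 had none. Of the 12775 genes with CpG-poor one-way promoters only, 14.2% (13.6% to 14.8%) had a peak, 24.0 percentage points fewer (Newcombe 95% interval of the difference 22.6 to 25.4). Of the 2336 genes at opposite-strand pairs 35.9% had one, and the difference of 2.27 points had an interval from -0.0709 to 4.57. At the main TSS alone the shares were 37.6% for the class and 33.8% for the pairs, a difference of 3.79 points (1.48 to 6.07). Class genes counted with member peaks only and the other genes with any peak, so these class shares leave out other peaks.

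The share rose with the CpG ratio up to the class and then levelled off. Genes under the limit of the class counted with any peak at the main TSS, class genes with member peaks only. The sides of the limit were therefore not counted alike. The share was 1.12% (0.643% to 1.82%) of genes whose main TSS had a ratio under 0.1, 7.18% between 0.3 and 0.4, and 24.5% between 0.5 and 0.6. It reached 34.5% (31.5% to 37.6%) between 0.7 and 0.75, just under the limit of the class. Inside the class the 6 bins held between 33.3% and 41.8%, highest between 0.85 and 0.9 and lowest from 1.00 upward (28.6% to 38.3%). A higher CpG ratio therefore went with a peak below the class limit, while within the class the bins followed no steady order. The 10 one-way peaks just inside the limit had a median −log10 p of 6.76, and the 10 just outside 7.27.

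**Figure D1:**
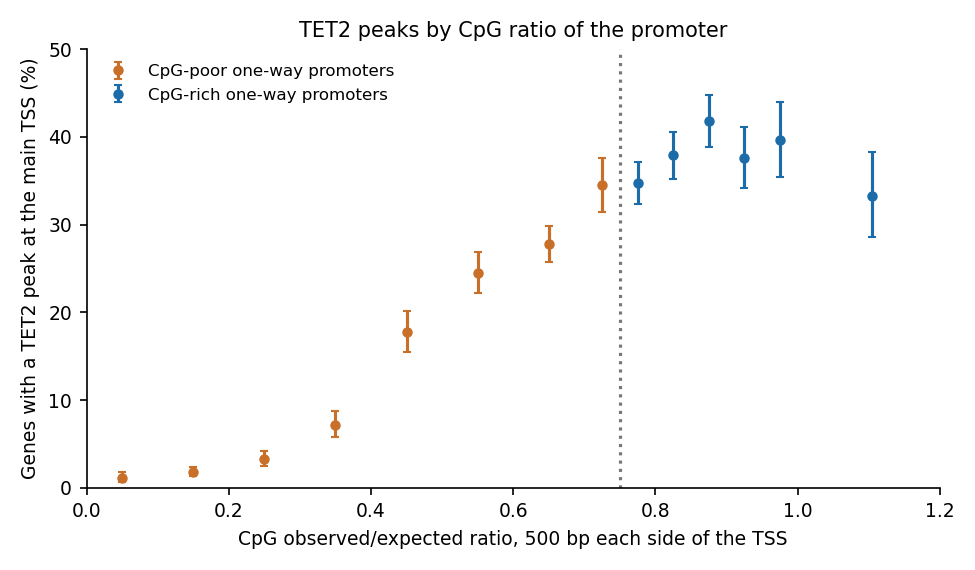
Share of autosomal one-way coding genes with a TET2 peak at the main TSS (vertical axis, percent) by the CpG observed/expected ratio around that TSS (horizontal axis). Genes under a ratio of 0.75 count with any peak, the others with member peaks only. Points are bins of genes, bars are exact 95% binomial intervals and the dotted line marks the ratio of 0.75; the share climbs from 1.12% to 34.5% below the line and stays between 33.3% and 41.8% above it.

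Class promoters with and without a peak had nearly equal median composition, while the share with a peak varied with GC content and with the length of exon 1. The median CpG ratio was 0.851 (95% order-statistic interval 0.846 to 0.855) for the 2140 genes with a member peak and 0.847 (0.844 to 0.851) for the 3261 without any peak, and the median GC content 64.3% and 64.0%. The share with a peak was lower in the group of lowest GC content, 31.5% (29.1% to 34.0%), than in the next, 42.5% (40.0% to 45.1%), and was 35.3% at the highest. Exon 1 was longer in genes with a peak, with a median of 279 bp (268 to 291) against 242 bp (235 to 252). The share was 31.8% (29.3% to 34.3%) for exons 1 of at most 152 bp and 43.4% (40.8% to 46.0%) for those of at least 426 bp.

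The length of the CpG island itself was read as the run of overlapping 200 bp windows around the TSS with a GC content of at least 50% and a ratio of at least 0.6. Such a run held the main TSS of 5557 of the 5611 genes. Genes with a run of 200 to 750 bp had a member peak in 32.1% of cases (29.6% to 34.7%) and those with 1300 to 3050 bp in 41.0% (38.0% to 44.0%), a difference of 8.90 percentage points (4.99 to 12.8). The runs of genes with and without a peak both began at a median of -350 bp and ended at 650 bp and 600 bp downstream, in steps of 50 bp. The additional length of island in genes with a peak thus lay on the side of the transcribed gene. Whether a longer stretch leaves more room for a midpoint to fall within 1 kb was not tested.

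Genes with a member peak were longer, with a median of 38296 bp (35513 to 40801) against 32658 bp (31223 to 34196) without any peak. The share was 33.2% (30.8% to 35.7%) for genes of at most 14456 bp and 39.4% (36.8% to 42.0%) for those of at least 79890 bp. The share was 38.1% for genes with 1 class TSS, 37.4% with 2 and 39.2% with 3 or more. It was 37.0% for genes on the plus strand and 38.2% on the minus strand. A noncoding TSS on the opposite strand within 1 kb was present at 16.9% of main TSSs with a peak and 16.4% of genes without, a difference of 0.499 points (-1.52 to 2.57). Single-exon genes had a member peak in 42.5% of 181 cases (35.2% to 50.1%) and multi-exon genes in 37.4%. By chromosome the share ran from 33.6% (29.2% to 38.1%) on chromosome 11 to 49.7% (42.4% to 57.1%) on chromosome 16, and the interval of chromosome 16 alone lay wholly above 38.1%.

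The value deposited with each peak was read as the −log10 p of the authors' peak caller from its place in that caller's column order, since no source names the column. The lowest values lie below the p-value setting that the study states for peak calling, so the scale of the column or the setting behind the list is uncertain, and the values are used to order peaks. Those of the members ran from 3.12 to 166 with a median of 6.82 (6.76 to 6.95). It was 6.95 (6.82 to 7.05) at CpG-poor promoters, 6.90 at opposite-strand pairs and 6.21 in the rest of the autosomes. Values of at least 10 were found for 10.3% of the members and 7.49% of the autosomal peaks away from coding TSSs, a difference of 2.82 points (1.49 to 4.27). Values under 5 were found for 11.2% and 17.8%. Peaks at CpG-poor promoters reached 10 in 12.2%, and members minus these gave -1.87 points (-3.76 to 0.0245). They lay under 5 in 10.5%, a difference of 0.704 points (-1.16 to 2.57). At opposite-strand pairs both shares were lower than in the members, with intervals on both sides of no difference. By these cuts members were thus stronger than peaks away from coding TSSs, but not than CpG-poor promoter peaks. Members had a median length of 485 bp (475 to 493), longer than CpG-poor promoter peaks with 462 bp (454 to 470) and the remaining autosomal peaks with 406 bp. The shortest length in the list, 375 bp, was that of 18.8% of the members and of 37.6% of the remaining autosomal peaks. It was that of 21.5% of the peaks at CpG-poor promoters and 23.5% of those at opposite-strand pairs.

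Strength did not follow the CpG ratio or the GC content within the class. Spearman's rank correlation over the 2164 members was -0.0108 between −log10 p and the CpG ratio at the TSS, -0.0505 with the GC content of the peak and 0.338 with its length. Long peaks and large −log10 p come from the same fragments, so the last value is a property of peak calling as well. The median member had a GC content of 68.8% and 10.3 CpGs per 100 bp, against 64.5% and 7.0 at CpG-poor promoters and 54.6% and 2.73 in the remaining autosomal peaks. These differences follow in part from the rule. Only 4 members (0.185%) were repeat-masked over 50% or more of their bases, against 38.3% of the remaining autosomal peaks. The share was also low at CpG-poor promoters, 1.36%, and at opposite-strand pairs, 0.243%.

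Members were centred downstream of the TSS. The median midpoint lay 142 bp (128 to 157) into the gene, and 74.0% of the midpoints (72.1% to 75.8%) lay at or downstream of the TSS. The side was the same for genes on the plus strand, 74.9%, and on the minus strand, 73.1%. It was also the same for members with a −log10 p of at least 10, 70.9% (64.4% to 76.7%), and under 5, 71.5% (65.4% to 77.1%). Midpoints lay within 200 bp of the TSS in 52.0% of the members and within 500 bp in 87.9%. The peak covered the TSS itself in 61.4% (59.3% to 63.5%), and coverage was highest at 175 bp, where 70.0% of the members lay. CpG-poor promoters had their highest coverage of 70.2% at 146 bp and 76.4% of midpoints downstream, a difference of -2.38 points (-4.96 to 0.206). Peaks at opposite-strand pairs covered the nearest TSS more often, in 76.9% (72.6% to 80.9%), with a median midpoint at 75 bp. This follows in part from the rule, since such a peak has TSSs of at least 2 coding genes within 1 kb and the nearest was taken.

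**Figure D2:**
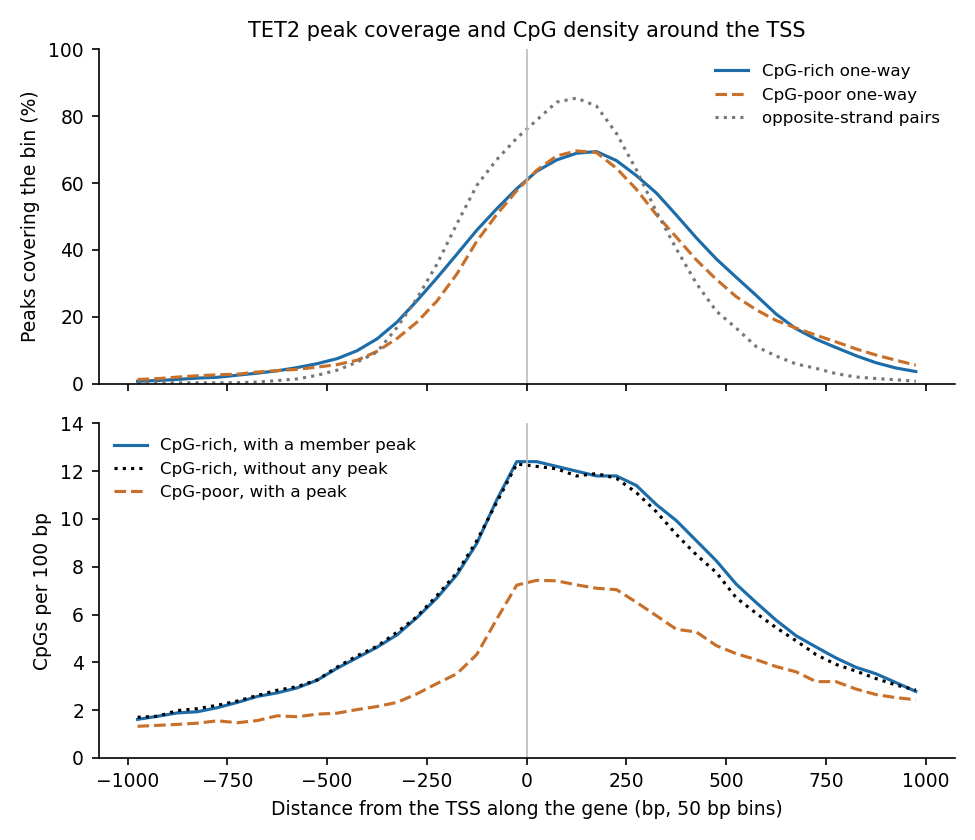
Upper panel, percent of peaks covering each 50 bp bin (vertical axis) by distance from the nearest TSS along the gene (horizontal axis, bp) for CpG-rich one-way (solid), CpG-poor one-way (dashed) and opposite-strand peaks (dotted). Lower panel, CpGs per 100 bp in the same bins for 2108 class promoters with a member peak at the main TSS (solid), 3261 without any peak (dotted) and CpG-poor promoters with a peak (dashed); member coverage is highest near 175 bp and the CpG curves with and without a peak nearly coincide.

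Most member midpoints lay in the first exon or the first intron. Exon 1 of the transcript of the nearest TSS held 43.1% of the midpoints (41.0% to 45.2%), intron 1 held 29.1% (27.2% to 31.1%), and 26.0% lay upstream. At CpG-poor promoters exon 1 held 49.4% and intron 1 held 23.1%, so members were in exon 1 less often by -6.32 points (-9.29 to -3.34) and in intron 1 more often by 5.99 points (3.37 to 8.61). The end of exon 1, where the first splice donor lies, was covered by 58.9% of the members (56.8% to 61.0%), and the start codon by 43.3% (41.2% to 45.4%). In members whose exon 1 was at most 138 bp long, intron 1 held 48.8% of the midpoints and exon 1 held 19.9%. In those with an exon 1 of at least 439 bp, intron 1 held 6.85% and exon 1 held 71.1%. The class of the midpoint thus changed with the length of the exon, while the median offset moved from 92.0 bp (69.0 to 112) to 236 bp (203 to 275).

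Midpoints were nearer to the centre of the CpGs than to the TSS. The median position of the CpGs within 1 kb of the TSS lay at 101 bp downstream (96.0 to 107). The midpoint was a median of 156 bp (148 to 165) from that centre and 190 bp (180 to 202) from the TSS, and 61.7% of the members (59.6% to 63.7%) were nearer to the CpG centre. Where the centre lay between -552 and 13 bp, the median midpoint was at 18 bp (2.0 to 35.0) and 55.0% of the midpoints were downstream. Where it lay at 186 to 513 bp, the median midpoint was at 290 bp (255 to 313) and 85.9% were downstream. Spearman's rank correlation between the offset and the CpG centre was 0.382 over the 2164 members, whose points share 1 library and the same annotation. Of the 2154 members with a CpG-dense run at the TSS, 94.4% (93.4% to 95.4%) had their midpoint inside the run, and 65.1% lay in it from end to end.

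**Figure D3:**
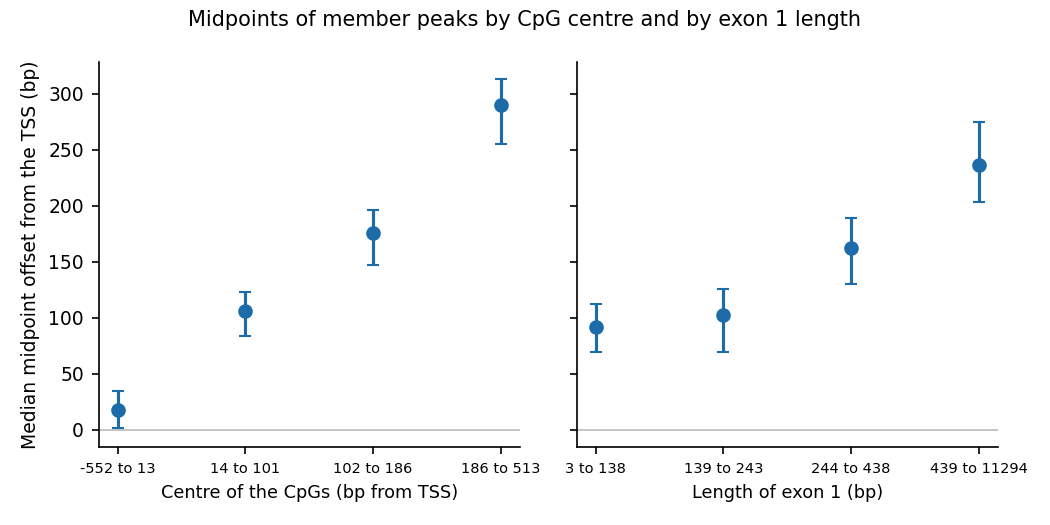
Median offset of member midpoints from the TSS (vertical axis, bp, with 95% order-statistic intervals) in 4 groups of members of nearly equal size by the centre of the CpGs (left, bp from the TSS) and by the length of exon 1 (right, bp). The medians run from 18 to 290 bp over the groups of CpG centre and from 92.0 to 236 bp over those of exon length.

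The largest values among the members belonged to repeated sequence. The peaks at the predicted genes Gm10722 (chr9:3000085-3002440), with a −log10 p of 166, Gm21738 (chr14:19416912-19419154), with 61.8, and Gm10715 (chr9:3037679-3038281), with 37.0, had 80, 45 and 159 matches in the genome of at least 100 bp and 90% identity. Repeat-masked bases made up 96.7%, 84.8% and 94.4% of them, and their GC content was 34.6% to 35.7%. These 3 members therefore lack the composition of a CpG island although their TSS passed the ratio. Sfi1 (chr11:3192882-3193851), with 80.2, had 1 match, and the next member with 1 match, Zkscan2, had 20.9. A count of matches in the reference sequence cannot show copies that the reference lacks, so it does not settle the copy number of Sfi1. Over all members 2063 had 1 match, 78 had 2 to 4 and 23 had 5 or more, among them Rpl13, Rpl31, Hist1h4j and Acot1, genes with close copies. How the alignment treated reads that match several places is not given in the sources used here. Without the 23 the median −log10 p of the remaining 2141 was again 6.82.

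Below these, the 16 other members of the 20 strongest had −log10 p from 14.4 to 20.9, and 1 match each. Zkscan2 had 20.9, Atp1b1 17.7, Anks1b 17.3 and Hist1h1c 17.1. Auh had 17.0, and Arhgef12 had 16.4. Signalling and membrane genes followed: Itm2b, a membrane protein, with 15.7, the receptor tyrosine kinase Ret with 15.3 and the tyrosine phosphatase Ptpn9 with 15.2. Yars2, the mitochondrial tyrosyl-tRNA synthetase gene, had 15.1, the zinc finger gene Zfp777 15, the motor protein gene Myo5a 14.7 and the sulfotransferase gene Chst10 14.7. Psip1, a reader of methylated histone H3, had 14.6, Cmss1 14.4 and the calcium channel subunit gene Cacnb2 14.4. Among the 100 strongest peaks of the whole list 11 were members (11%, 5.62% to 18.8%), a share whose interval holds the 15.3% of the whole list. Among the 1004 strongest 183 were members (18.2%, 15.9% to 20.8%), and that interval lies above it.

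Most genes had a single member peak. The 2164 members were nearest to 2135 genes, of which 2107 had 1, 27 had 2 and Nrg1 had 3. Nrg1, the gene of the growth factor neuregulin 1, carried them over 875832 bp, a near pair and a distant one, at -755, 93 and 157 bp from the nearest TSS, with −log10 p from 5.79 to 9.94. The midpoints of the 27 pairs were 542 to 170954 bp apart with a median of 874 bp. Pairs close to each other included Adra1d, an adrenergic receptor gene, Gas1, Hhex and Mycl, and pairs at separate promoters included Fgf12, Foxn3, Lingo1 and Ssh2, chosen after their values were seen.

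The motifs of promoter-binding factors were found at nearly equal rates in class promoters with and without a peak. The window ran from 250 bp before to 50 bp after the main TSS, both strands were searched, and 2108 promoters with a member peak were set against 3261 without any peak. GGGCGG, the GC box bound by SP1, was in 77.9% and 77.0% (ratio 1.01, log-ratio 95% interval 0.983 to 1.04), and in 47.4% of all coding promoters. TTNCNNAA, a loose C/EBP motif, was in 23.7% and 23.1% (1.03, 0.930 to 1.13; 37.3% of all). GCCNNNGGC for AP-2 was in 33.7% and 32.4% (1.04, 0.961 to 1.12; 20% of all). Matches of different motifs may share bases.

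The other 7 motifs gave the same picture. The ratio was 1.02 for CCGGAA of ETS factors, 1.10 for TGACGTCA of CREB, 1.06 for CACGTG, the E-box, and 1.01 for AAGATGGC of YY1. It was 0.960 for CCAAT, 0.964 for the TATA box TATAAA and 0.837 (0.647 to 1.08) for CGCATGCG of NRF1. All coding promoters held these in 18.9%, 2.52%, 7.92%, 3.18%, 37.4%, 12.9% and 2.45%, in the order given. The intervals of all 10 ratios held 1. With 500 bp each side of the TSS those of 4 motifs did not: CGCATGCG with 0.781 (0.624 to 0.977), CCAAT with 0.946 (0.903 to 0.991), TTNCNNAA with 0.948 (0.908 to 0.989) and GCCNNNGGC with 1.04 (1.01 to 1.08). A match of letters is not a bound site, and the motifs containing CG are favoured in every promoter of the class.

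**Figure D4:**
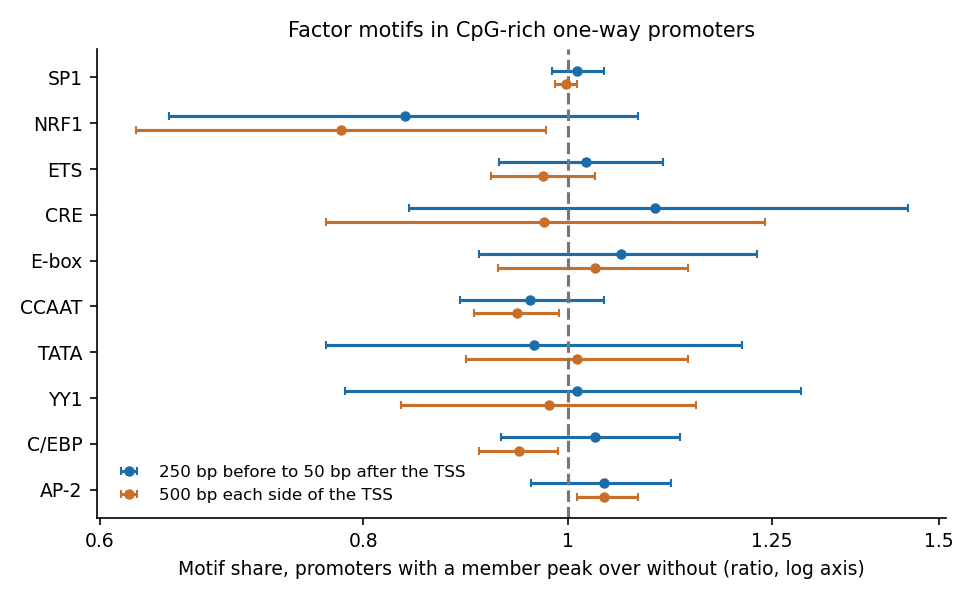
Ratio of the share of class promoters holding a motif, with a member peak over without any peak (horizontal log axis), for 10 motifs (vertical axis) in 2 windows. Points are ratios and bars 95% intervals; in the narrow window every interval crosses 1 and the ratios run from 0.837 to 1.10, while in the wide window 4 intervals leave out 1 and the lowest ratio is 0.781.

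Genes of fat cell biology with class promoters were set against the 38.1% of all class genes. Of 29 adipogenic transcription factors and cofactors with a class promoter, 5 had a member peak, or 17.2% (5.85% to 35.8%), a share whose interval lies below the background. These were Cebpd, which acts early in adipogenesis, with a −log10 p of 9.66, the Krüppel-like factor gene Klf9 with 7.53, Cebpg with 5.78, the coactivator gene Ncoa2 with 5.51 and Sp3 with 4.84. The midpoints lay at 337 bp in Cebpd, 89.0 bp in Klf9 and 53.0 bp in Cebpg. Pparg, Cebpa, Cebpb, Rxra, Foxo1, Klf4, Klf5 and Klf15 were among the 24 without one. With a CpG threshold of 0.6 the share was 24.4% (12.4% to 40.3%) and with midpoints within 500 bp 20% (7.71% to 38.6%), and both intervals then held the share of all class genes. Of the 21 genes of fat synthesis, storage and lipolysis 9 had a member peak, or 42.9% (21.8% to 66.0%).

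The lipid genes with a member peak spanned several steps. Abhd5, the activator of the lipase ATGL, had a −log10 p of 11.1 at -14.0 bp, and Insig1, which restrains sterol synthesis, 10.3 at -374 bp. Acaca, the acetyl-CoA carboxylase of fatty acid synthesis, had 10.1, Gpam, the first enzyme of glycerolipid synthesis, 8.64 at 92.0 bp and the desaturase gene Fads1 8.10 at 9.0 bp. Elovl5, Mgll, Dgat1 and Srebf2 had smaller values from 4.15 to 7.21. Fasn, Dgat2 and Scap had class promoters without one.

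Of 34 genes of insulin and leptin signalling 9 had a member peak, or 26.5% (12.9% to 44.4%). Among them were the Ras activator gene Sos2 with 8.46, the catalytic subunit gene Pik3ca with 7.40 and the adaptor gene Grb2 with 6.01. Akt1, Akt2, Mtor, Foxo3 and Irs2 had none. Among 3 adipokine genes of the class Nampt, at 551 bp, had 6.21 and Vegfa 5.21. Of 7 thermogenic genes 3 had one: Tfam, the mitochondrial transcription factor, with 13.7, Bmp8b with 7.05 and Esrrg with 5.59. Most defining genes of the adipocyte lay outside the class, since Adipoq, Lep, Fabp4, Plin1, Lpl, Cidec, Lipe and Slc2a4 have CpG-poor promoters, and of these 8 Lep alone had a peak, beside the 14.2% of all genes with CpG-poor promoters. A peak list does not measure expression, so it cannot show how far the cells had differentiated.

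Of the 6 genes named in the study that have a class promoter, none had a member peak (0 of 6 genes, exact 95% binomial interval up to 45.9%). That interval holds the 38.1% of all class genes. For Prdm16, a regulator of brown fat identity, the nearest midpoint of any peak lay at 1037 bp, just beyond the limit, with a −log10 p of 5.73. For Tet3 it lay at 14689 bp and for Tet2 at 49082 bp, both inside the gene, with 6.04 and 5.00. The Tet3 peak was one of those at CpG-poor one-way promoters, with its midpoint within 1 kb of a coding TSS. The Tet2 peak lay over 1 kb from any coding TSS. For Cebpa the nearest midpoint lay at 37566 bp, for Pparg at 183854 bp and for Jak2 at -150122 bp, all outside the gene.

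Genes of the DNA methylation system, in which TET2 itself acts, had a member peak in 5 of 15 cases, or 33.3% (11.8% to 61.6%). Mbd2, a reader of methylated CpG, had a −log10 p of 12 at -63.0 bp. Dnmt3b, a de novo methyltransferase, had 7.53 at 213 bp and Uhrf1, which guides maintenance methylation, 6.24 at 102 bp. Cxxc4, whose product binds TET2, had 6.21, and Tdg, the glycosylase that removes the oxidised bases, 5.13. Of 19 genes of CXXC proteins and H3K4 methylation 4 had one (21.1%, 6.05% to 45.6%), and these were Dpy30 with 6.24, Kmt2d with 5.78, Kmt2c with 4.95 and Setd1a with 4.91. Of 25 Polycomb genes 8 had one (32.0%, 14.9% to 53.5%), with Eed at 8.51, Jarid2 at 8.28, Mtf2 at 7.21, Pcgf6 at 6.47 and Yaf2 at 6.32.

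Potassium channel genes had a member peak in 18 of 29 cases, or 62.1% (42.3% to 79.3%), with an interval above the background, and their median CpG ratio was 0.812. With midpoints within 500 bp the share was 51.7% (32.5% to 70.6%), and the interval then held the 33.4% of all class genes. The largest values were those of Kcnma1, the calcium-activated channel of large conductance, with 11.8, Kcnq5 with 11.4, Kcnn2 with 10.8, the two-pore channel gene Kcnk3 with 10.5 and Kcnk9 with 9.84. At the other end, cluster histone genes had one in 4 of 34 cases, or 11.8% (3.30% to 27.5%), at a median CpG ratio of 0.885. The 4 were the linker histone genes Hist1h1c with 17.1 and Hist1h1e with 9.09 and the core histone genes Hist1h4j with 7.34 and Hist1h3i with 4.12. Core histone genes have near-identical copies, and Hist1h4j and Hist1h3i had 12 and 13 matches, so their peaks are uncertain as to which copy they belong to. The part of these copies in the low share was not tested.

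Developmental transcription factor and Wnt genes had one in 23 of 84 cases, or 27.4% (18.2% to 38.2%), an interval that just reaches the background. Foxj3 had 8.85, Tbx21 8.36, Foxd1 7.53, Sox18 7.28 and Foxp2 7.16. Zinc finger genes of the Zfp and Zkscan families had one in 27 of 91 cases, or 29.7% (20.5% to 40.2%), led by Zkscan2 with 20.9, Zfp777 with 15, Zfp622 with 12.9, Zfp3 with 12.2 and Zfp644 with 11.3.

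Genes of general cell function lay around the background. Cytosolic ribosomal protein genes had one in 15 of 50 cases (30.0%, 17.9% to 44.6%), with Rpl19 at 9.66, Rplp0 at 8.64, Rpl13a at 8.56 and Rps27l at 8.46. Mitochondrial ribosomal protein genes had one in 7 of 19 (36.8%), translation initiation factors in 11 of 32 (34.4%), led by Eif3f with 12.7 and Eif3c with 9.50, and splicing factors in 9 of 22 (40.9%), led by Hnrnpf with 11 and Hnrnpm with 8.65. Proteasome subunits had one in 4 of 14 (28.6%), with Psmc4 at 7.37, Rab GTPases in 7 of 22 (31.8%), with Rab1a at 11.8, and complex I subunits in 2 of 5, with Ndufa10 at 11.5. Over the 20 lists, 1 interval lay above the 38.1% and 2 lay below it.

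**Figure D5:**
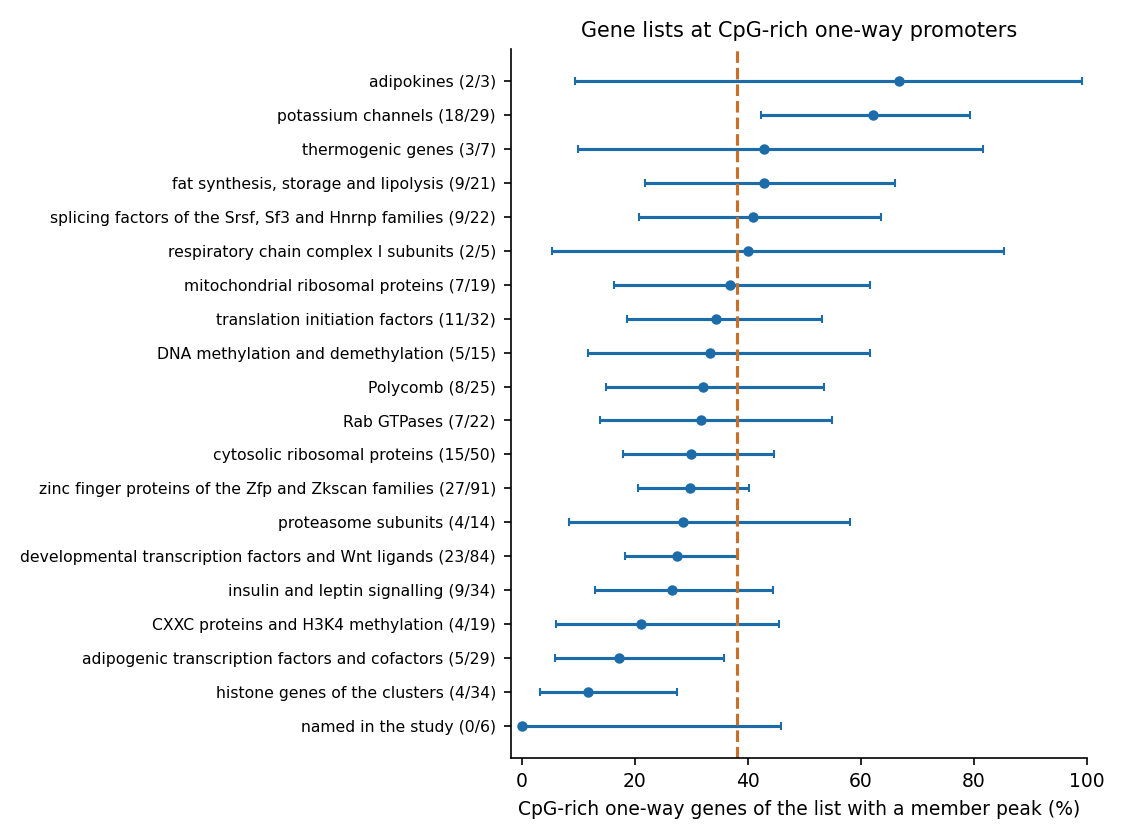
Share of the class genes of each list that had a member peak (horizontal axis, percent), with the counts beside the list names (vertical axis) and exact 95% binomial intervals. The dashed line is the 38.1% of all class genes; potassium channels at 62.1% lie above it, and adipogenic factors at 17.2% and cluster histones at 11.8% below it.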

How the data were processed

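TET2 ChIP and input libraries from adipocytes differentiated in culture were sequenced by the authors, trimmed with NGS QC Toolkit, aligned with bowtie1 and passed to MACS2 for peak calling against the input. How reads matching several places were treated is not given in the sources used here. The submitters' processing notes name bcl2fastq, Bowtie, MACS2 2.1.0 and mm10, while the methods name GRCm39. All positions here are on GRCm38 (mm10). The deposited list gives for each peak an interval, counted from 1, and a value read here as the −log10 p computed by the authors' caller. The column has no name in the sources used, and its lowest values lie below the p-value setting that the study states. A sequencing yield is stated for the study, but the deposited list gives no fragments per peak, so the depth behind a peak is unknown.

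Peaks were placed by their midpoint against GENCODE M21 transcripts of type protein_coding, and CpG ratios were read from the RefSeq sequence of GRCm38. A gene counted as a class gene when 1 of its TSSs was CpG-rich with no opposite-strand coding TSS within 1 kb. Its main TSS was the one ranked first by APPRIS among its TSSs of that class, which need not be the first of the whole gene. Shares have exact binomial intervals, differences Newcombe intervals, medians order-statistic intervals and motif ratios log-ratio intervals, all at 95%. Copies were counted with blastn 2.17.0. Seeds were taken outside repeat-masked bases, except for the 20 strongest members and those that had no match that way. Simulated peaks and sequences with known answers were used to test the scripts. The tools were samtools 1.23.1, scipy 1.17.1, pysam 0.24.0, pandas 2.3.3, numpy 2.4.6 and matplotlib 3.10.9 under Python 3.11.15.

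The members, gene lists and alternatives were chosen with earlier results of these data known. Named genes were the 20 members with the largest −log10 p and listed class genes that the study names. Up to 5 members of each list by −log10 p, with examples without a peak, and genes with 3 member peaks were added. Sequences were those of up to 12 members in order of −log10 p. The island length, the name groups and the further peaks in gene bodies were added after the data had been seen. Some genes that this rule names are not reported here.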

Additional observations from a re-analysis of the deposited data

How the results depend on the processing

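No paired analysis was possible because each antibody and input sample was a lone library and no result came from a test between groups. A share or median was taken as moved when it left the reported 95% interval, and a count when it changed by more than 1.5 times. Of 164 values under alternatives, 135 stayed within these limits and 29 moved. Among the main results 49 stayed and 25 moved. Among single motifs and gene lists 86 stayed and 4 moved. Several lists had wide intervals, such as 9.43% to 99.2% for the adipokines, so that staying within them says little. In each alternative that was run the median midpoint stayed downstream of the TSS and at least 70.8% of the midpoints lay there.

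With any transcript of a coding gene the median offset was 105 bp, the downstream share 70.8% and the intron 1 share 26.7%. With basic transcripts these were 174 bp, 76.0% and 31.2%. With midpoints within 500 bp of the TSS the offset was 117 bp, the intron 1 share 26.8% and the share of class genes with a peak 33.4%.

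The number of members was 3299 with a CpG threshold of 0.6 and 655 with 0.9, and the share of class genes with a peak was then 36.1% and 33.9%. That share was 34.9% with a CpG window of 250 bp each side. With a −log10 p of at least 5 it was 33.9% and the median −log10 p 7.16. With at least 10 there were 223 members at 4.01% of class genes, with a median −log10 p of 11.3, a length of 568 bp, an offset of 113 bp, 70.9% of midpoints downstream, 46.6% in exon 1 and 22.0% in intron 1. Fewer peaks by construction lower the share of genes and raise the −log10 p. For the other values the cause was not tested.

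The number of motif ratios whose interval excluded 1 was 4 with 500 bp each side of the TSS, against 0 as reported, 0 for promoters with a ratio of at least 0.9 and 0 with 50 bp before to 250 bp after the TSS, an alternative chosen after seeing the data. Intervals of 4 gene lists excluded the share of all class genes with the threshold of 0.6, within 500 bp and with a −log10 p of at least 5, against 3 as reported, and only the cluster histones were among them in every setting. Those with the threshold of 0.6 were also the Zfp and Zkscan genes, the potassium channels and the listed genes named in the study, a list without Rplp0. Within 500 bp they were also the CXXC, the insulin and leptin, and the developmental lists. With a −log10 p of at least 5 they were also the CXXC list, the adipogenic factors and the potassium channels. Leaving out the 23 members of 5 or more matches, also chosen after seeing the data, moved none of the 7 values it was run for. The unknown number of fragments behind each peak limits statements on single weak members.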

Other observations

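Class genes were also grouped by the first letters of their symbols, for the 20 name groups with at least 20 class genes. The interval lay above 38.1% for 2 groups and below it for 1. Slc genes, which encode membrane transporters, had a member peak in 44 of 80 cases, or 55.0% (43.5% to 66.2%), and genes with names in Map, kinases of the MAP kinase cascade and microtubule-associated proteins, in 19 of 30, or 63.3% (43.9% to 80.1%). Hist genes, already described, had one in 11.8%. The shares of the other groups ran from 27.8% for Zfp, whose interval of 18.9% to 38.2% reaches the background, to 49.2% for Fam.

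A member peak at the promoter did not go with further peaks in the gene. A peak over 1 kb from any coding TSS lay in the body of 24.5% of the 2140 genes with a member peak (22.7% to 26.4%) and of 24.8% of the 3261 without any peak at a coding TSS (23.3% to 26.3%), a difference of -0.322 percentage points (-2.65 to 2.04). Only in genes of at most 14456 bp did the interval exclude 0, with 6.37% (4.34% to 8.97%) against 12.6% (10.5% to 14.9%). In genes of at least 79890 bp the shares were 45.5% and 46.2%.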
